A study of Homo sapiens with 8 samples.

Results

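Glucose enters a liver cell through facilitative transporters, is broken down to pyruvate and lactate by glycolysis, and is rebuilt by gluconeogenesis, and 35 genes of these steps were followed here. They were picked by name: transporters, the glycolytic enzymes with their isozymes, the gluconeogenic enzymes, the kinases that restrain pyruvate dehydrogenase, and the lactate transporters. The count tables held 33 of the 35 in the knockout experiment, out of 16040 gene names, and 31 of the 35 in the siRNA experiment, out of 14955. Over both tables there were 16169 gene names. LDHB and PCK1 were not listed in either table, and SLC2A2 and HK1 were not listed in the siRNA table, so these fell below the limit of deposition, a sum of 10 counts per transcript over 4 libraries.

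RNA-seq was carried out in Hep3B, a human hepatocellular carcinoma (HCC) cell line that keeps many liver genes active. There were 4 groups of 2 libraries: Hep3B, Hep3B labeled SOX4 knockout (SOX4-/-, made with CRISPR/Cas9), Hep3B with a control (scramble) siRNA and Hep3B with STAT6 siRNA. Per the study's methods the deposited knockout data are from its SOX4-/- lines #1 and #2, and the labels do not say which library is from which line. Nothing in the labels says that the libraries of a group come from separate cultures, so the p-values measure the spread between these libraries, which may be technical. No treatment, time or dose is given in the labels beyond the siRNA. The study's methods state that the SOX4-/- cells were cultured with puromycin and name it for no other group. Its part cannot be told apart from that of the knockout. SOX4 and STAT6 are transcription factors, and the comparisons ask how transcripts differ when either is removed or reduced.

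In a normal hepatocyte, glucose passes through GLUT2 (SLC2A2), pyruvate is made by the liver type of pyruvate kinase (PKLR), and glucose can be released again through fructose-1,6-bisphosphatase (FBP1), phosphoenolpyruvate carboxykinase (PCK1, PCK2) and the glucose-6-phosphate transporter (SLC37A4). HCC cells usually replace these with isozymes found in most dividing cells, such as GLUT1 (SLC2A1), hexokinase 2 (HK2), pyruvate kinase M (PKM) and lactate dehydrogenase A (LDHA). Many of the latter are also targets of the hypoxia-inducible factors, which bind short sites with the letters ACGTG.

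Each library held between 16266282 and 25353113 expected counts in total. The transcript of the targeted gene did not check the knockout label. SOX4 protein in the SOX4-/- cells was examined by the study with western blotting, and RNA counts do not measure protein. SOX4 stood at 799 and 266 CPM (counts scaled to library size with TMM factors) in Hep3B and 298 and 302 in the labeled knockout libraries (log2 fold change -0.83, edgeR quasi-likelihood adjusted p = 0.372), so both libraries labeled knockout lay between the Hep3B libraries. STAT6 stood at 42.5 and 31.4 CPM with control siRNA and at 9.92 and 5.98 with STAT6 siRNA, without overlap (log2 fold change -2.22, edgeR adjusted p = 1). The Hep3B libraries 1 and 2 differed widely from each other, and the siRNA libraries numbered 1 stood apart from those numbered 2 in GC content (Spearman rho across genes of the difference, library 2 minus 1, with GC -0.76 for control and -0.82 for STAT6 siRNA). All 11 hepatocyte markers checked were detected in every library. Their summed level was 12241 to 16739 CPM in Hep3B and 32191 to 53907 CPM in the labeled knockout, where 10 of 11 lay above both Hep3B libraries. The 5 fibroblast markers summed to 4.43 and 7.44 CPM in Hep3B and to 101 and 77.5 CPM in the labeled knockout, of which LUM gave 85.5 and 54.2 CPM, with DCN and COL1A2 not listed. The defining blood and endothelial genes CD3E, VWF and CDH5 were not listed, and PTPRC stayed at or below 6 counts, while the 4 blood markers, mostly CD68, summed to 44.2 and 29.6 CPM in Hep3B and 76.5 and 96.9 CPM in the labeled knockout. The 4 cholangiocyte markers summed to 966 and 687 CPM and to 1042 and 1208 CPM.

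The members together made up 0.731% to 1.86% of the scaled counts of the knockout experiment and 1.02% to 2.43% in the siRNA experiment. Per kilobase of transcript, GAPDH and ALDOA were the most abundant members in all 4 groups, with GAPDH at a mean of 1696 CPM per kb in Hep3B, 1190 in the labeled knockout, 2281 with control siRNA and 3082 with STAT6 siRNA. ENO1, PKM and TPI1 filled ranks 3 to 5 in each group. In Hep3B the lowest tested members were SLC2A2 with 0 counts, PKLR at 0.319 CPM per kb, PDK4 at 0.413 and FBP1 at 0.431. GAPDH, PGK1, PGAM1, ENO1, LDHA, TPI1, PKM and HK2 have near-identical copies or pseudogenes, so their counts are uncertain to the extent that reads were split.

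**Figure D1:**
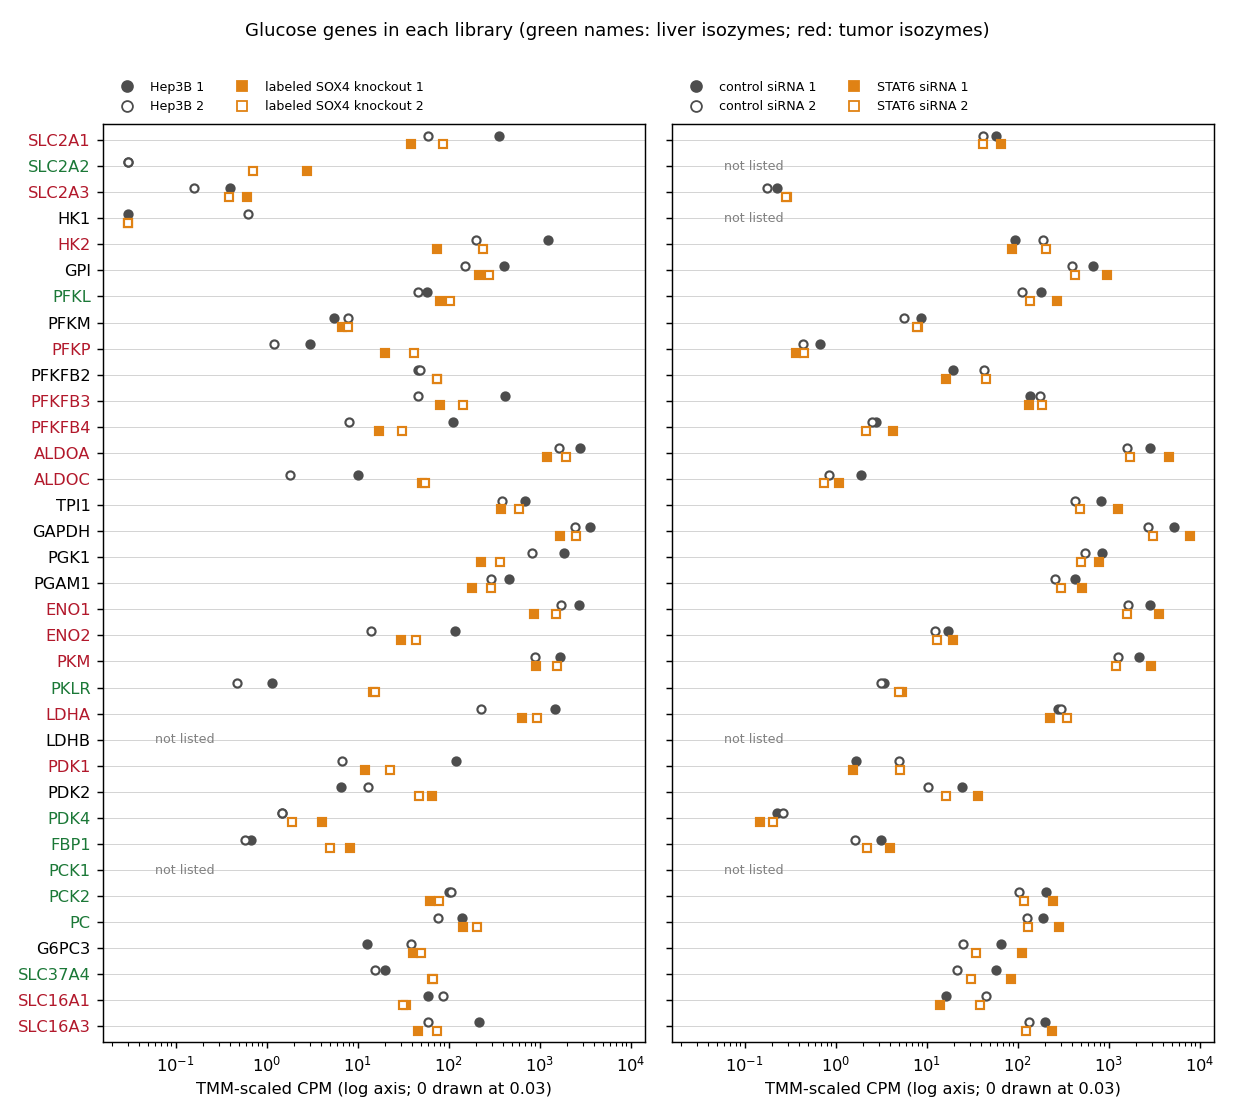
TMM-scaled CPM of the 35 genes (log axis) in the 4 libraries of the knockout experiment (left) and of the siRNA experiment (right), 1 point per library, with filled points for number 1 and open points for number 2. In the left panel PKLR, PFKP, FBP1, PDK2, SLC37A4 and ALDOC lie apart between the groups, while HK2, SLC2A1, PFKFB4 and PDK1 are highest in Hep3B library 1.

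The labeled SOX4 knockout was compared with Hep3B over all genes. Of the 31 members that passed the filter on low counts, 7 were higher at an adjusted p below 0.05 and 0 were lower, against 5.89% of all 14415 genes called and 4.5% called higher. SLC2A2, PKLR, FBP1, SLC37A4, PFKP, ALDOC and PDK2 were the 7. At an unadjusted p below 0.05 there were 11 members, where the share of all genes was 26%. Both knockout libraries lay above both Hep3B libraries for 12 members and below them for 4, where 30.6% and 27.4% of all genes did so. The median log2 fold change was -0.15 over the 31 members and 0.01 over all genes, and 18 members were below 0. The calls rested on the libraries used. Without Hep3B library 1 there were 7 higher and 1 lower (SLC16A1), without Hep3B library 2 there were 8 higher and 8 lower, without knockout library 1 there was 1 higher (PFKP), and without knockout library 2 there were 0, where a lone library is assumed to vary like the other group. SLC2A3 and HK1 did not pass the filter. SLC2A2 and PKLR would not have passed it without the knockout libraries. SLC2A2 reached its limit in neither Hep3B library, so SLC2A2 could enter the test only by being higher in the knockout. PKLR reached it in Hep3B library 1 alone, so PKLR could enter only with a knockout library above Hep3B library 2. The other 5 calls do not rest on this.

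PKLR (chr1:155289293-155308654, minus strand, GRCh38.p14) encodes the liver and red cell pyruvate kinase, which makes pyruvate from phosphoenolpyruvate. It stood at 1.14 and 0.475 CPM in Hep3B and at 14.7 and 15.6 CPM in the labeled knockout, a log2 fold change of 4.23 (SE 0.61, adjusted p = 0.0186). The knockout libraries were alike and far above both controls. FBP1 (chr9:94603133-94640263), which removes a phosphate from fructose-1,6-bisphosphate in gluconeogenesis, went from 0.681 and 0.580 to 8.33 and 5.00 CPM (log2 fold change 3.39, SE 0.64, adjusted p = 0.0316). The groups did not overlap, and the Hep3B values rest on 12 and 11 counts.

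SLC37A4 (chr11:119024112-119030877) carries glucose-6-phosphate into the endoplasmic reticulum, a late step on the way to glucose release. It was measured at 20.3 and 15.5 CPM in Hep3B and 65.4 and 68.0 CPM in the labeled knockout (log2 fold change 1.90, SE 0.36, adjusted p = 0.0319). SLC2A2 (chr3:170996347-171026720), the low-affinity glucose transporter of hepatocytes, had 0 counts in both Hep3B libraries and 73 and 13 counts in the knockout libraries, or 2.76 and 0.715 CPM. Against 3 counts in each Hep3B library, the mean of the knockout was at least 10.6-fold higher. Its adjusted p of 0.0426 comes from a gene that entered the fit through the knockout libraries alone and is given as a description. The level stayed low, and the counts fell on a different annotated transcript in each knockout library.

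The other liver isozymes moved less. PFKL, the liver phosphofructokinase subunit, was at 58.3 and 46.2 CPM against 80.9 and 104 CPM (log2 fold change 0.83, SE 0.35, adjusted p = 0.186). PC, pyruvate carboxylase, was at 141 and 76.1 against 144 and 203 CPM, and PDK4, a pyruvate dehydrogenase kinase induced by fasting, at 1.48 and 1.48 against 4.09 and 1.92 CPM (log2 fold change 1.03, SE 0.65, adjusted p = 0.358). All of these lay above both Hep3B libraries without passing the test. PCK2, the mitochondrial carboxykinase, lay below them, with 101 and 106 CPM in Hep3B and 63.2 and 78.0 CPM in the labeled knockout (log2 fold change -0.55, adjusted p = 0.333). Of the 8 liver isozymes tested, 4 were higher at the threshold and 7 lay above both Hep3B libraries, with a median log2 fold change of 1.46. These counts and the median include SLC2A2 and PKLR, which would not have entered the test without the knockout libraries. Of the 14 tumor isozymes tested, 2 were higher at the threshold (PFKP and ALDOC), 2 lay above and 2 below both Hep3B libraries, and the median was -0.95. Over all genes 4.5% were called higher and 30.6% lay above both Hep3B libraries. Of the 11 hepatocyte markers, 10 lay above both Hep3B libraries and 4 were called higher. ALB, not called (edgeR adjusted p = 0.22), stood at 7458 and 6824 CPM in Hep3B and 28445 and 13644 CPM in the labeled knockout. AFP overlapped, at 149 and 30.6 CPM in Hep3B and 75.2 and 30.9 CPM in the labeled knockout. The part of these markers in this result was not tested.

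The 3 remaining called members are not liver isozymes. PFKP (chr10:3067548-3136805), the platelet-type phosphofructokinase subunit common in tumors, went from 3.01 and 1.21 to 19.9 and 41.7 CPM (log2 fold change 3.86, SE 0.63, adjusted p = 0.0226). ALDOC (chr17:28573120-28576895), the brain-type aldolase, went from 9.99 and 1.79 to 51.1 and 55.7 CPM (log2 fold change 3.18, SE 0.73, adjusted p = 0.0475). PDK2 (chr17:50094737-50112152), the pyruvate dehydrogenase kinase of most tissues, went from 6.53 and 13.0 to 66.1 and 47.8 CPM (log2 fold change 2.54, SE 0.46, adjusted p = 0.0282). For each of them both knockout libraries were above both Hep3B libraries, and the Hep3B libraries themselves differed most for ALDOC. PKLR, SLC37A4 and PDK2 overlap genes on the opposite strand (HCN3 over 556 bases, TRAPPC4 over 1341 and SAMD14 over 2113), and whether the counting used strand is not given in the sources used here.

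No member was lower at the threshold. PGK1 (chrX:78104248-78129295), phosphoglycerate kinase, came nearest, with 1854 and 822 CPM in Hep3B and 227 and 371 CPM in the labeled knockout (log2 fold change -2.16, SE 0.55, adjusted p = 0.0626). SLC16A1, the lactate transporter MCT1, stood at 60.1 and 87.9 CPM against 34.3 and 31.8 CPM (log2 fold change -1.16, SE 0.36, adjusted p = 0.0975). For both, the groups did not overlap. ENO1, the common enolase, was at 2703 and 1702 CPM against 869 and 1533 CPM, with the second knockout library close to the second Hep3B library. PFKFB2, a bifunctional enzyme of fructose-2,6-bisphosphate, and G6PC3, the common glucose-6-phosphatase, were above both Hep3B libraries, with 45.6 and 48.4 CPM against 74.4 and 75.5 CPM for PFKFB2 and 12.7 and 38.8 CPM against 40.9 and 50.4 CPM for G6PC3. ALDOA, TPI1, GAPDH, PGAM1, PKM, GPI and PFKM overlapped between the groups, with log2 fold changes from -0.67 for PGAM1 to 0.13 for PFKM. SLC2A3, the neuronal glucose transporter, was at 0.397 and 0.158 CPM in Hep3B and 0.606 and 0.385 CPM in the labeled knockout. With the DESeq2 Wald test PGK1, SLC16A1 and HK2 were called lower (adjusted p = 0.00061, 0.0369 and 0.0327).

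**Figure D2:**
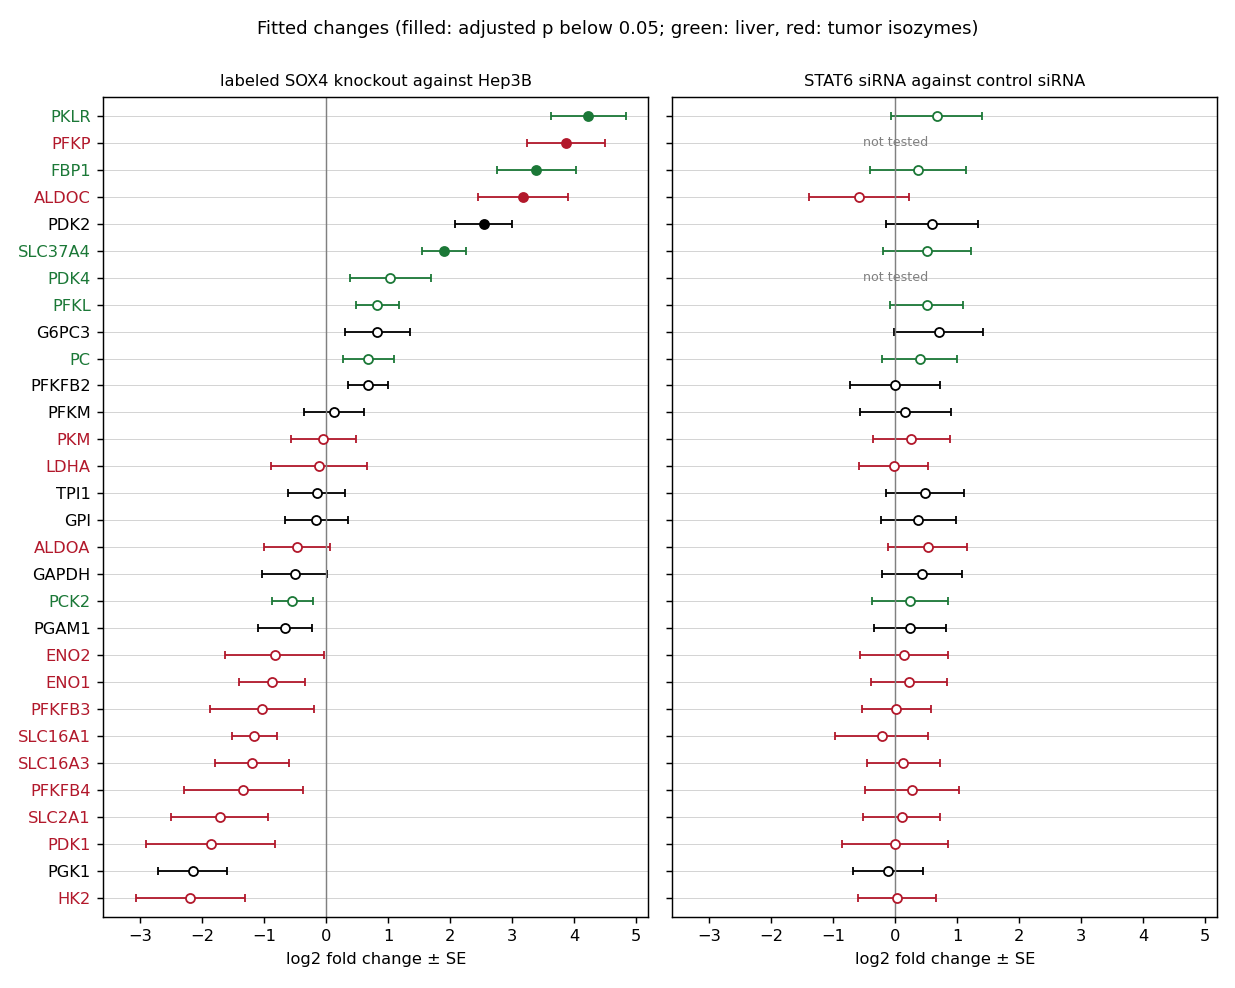
Fitted log2 fold change with its standard error of each tested gene (SLC2A2, with 0 counts in Hep3B, is left out) for the labeled SOX4 knockout against Hep3B (left) and STAT6 siRNA against control siRNA (right), filled where the adjusted p is below 0.05. Filled points, from PKLR at 4.23 to SLC37A4 at 1.90, are on the left panel, and none is filled on the right.

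The Hep3B libraries differed from each other in many tumor isozymes. For 13 of the 31 tested members Hep3B library 1 was more than 1 (log2) above Hep3B library 2, as for 14% of all genes, and for 1 member the reverse held. HK2, which traps glucose in the cell, stood at 1242 CPM in Hep3B library 1 and 200 CPM in library 2, and the knockout libraries at 74.7 and 240 CPM (log2 fold change -2.20, SE 0.88, adjusted p = 0.167). SLC2A1 stood at 358 and 58.8 CPM in Hep3B and at 39.0 and 87.3 CPM in the labeled knockout. LDHA, which turns pyruvate into lactate, stood at 1489 and 229 CPM in Hep3B and at 648 and 941 CPM in the labeled knockout, between them. PDK1, a kinase that restrains pyruvate dehydrogenase, showed the widest gap. It stood at 121 and 6.70 CPM in Hep3B and at 12.2 and 22.8 CPM in the labeled knockout. The bifunctional enzymes that set fructose-2,6-bisphosphate, PFKFB3 (412 and 46.4 CPM in Hep3B, 81.5 and 143 in the labeled knockout) and PFKFB4 (113 and 8.12, then 17.1 and 30.7), and the neuronal enolase ENO2 (116 and 14.2, then 29.8 and 43.3) had the same order. The lactate exporter SLC16A3 stood at 217 and 59.7 CPM in Hep3B and 46.0 and 74.9 CPM in the labeled knockout.

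Measured against Hep3B library 1, the mean of the knockout libraries had a median difference of -1.46 (log2 CPM) over the 14 tumor isozymes, and against Hep3B library 2 of 0.82. For 6 of the 14 the sign changed with the library (PFKFB3, PFKFB4, ENO2, PKM, LDHA and PDK1). For the 8 liver isozymes, the filter-dependent SLC2A2 and PKLR among them, the median differences were 1.30 and 1.63, and the sign changed for 0. The same gap between the Hep3B libraries was seen in 16 of 34 genes listed as regulators of these pathways or as hypoxia and glucose sensors. Of all genes tested, 14% had this gap, and 3 of the 34 genes had the reverse gap. CA9, a carbonic anhydrase induced by hypoxia, stood at 166 and 10.2 CPM in Hep3B libraries 1 and 2, NDRG1 at 821 and 34.3 CPM, and VEGFA at 1211 and 213 CPM. HIF1A itself was level at 201 and 191 CPM. TXNIP, which is induced by glucose and lowers its uptake, was reversed, with 0.284 CPM in library 1 and 9.49 CPM in library 2. The part that such differences between the Hep3B libraries play in the comparison was not tested.

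The stretches around the transcription starts of 5 members are given to show where the letters ACGTG occur (RefSeq, GRCh38.p14, 250 bases before to 50 after the start, each 5′ to 3′ on the strand of the gene, capitals marking ACGTG or its reverse complement). LDHA (chr11:18394313-18394612) and PDK1 (chr2:172555840-172556139) are among the members with a wide gap between the Hep3B libraries. ALDOC (chr17:28576846-28577145) also has this gap and is in addition higher in the labeled knockout. PKLR (the liver start, chr1:155300903-155301202) and FBP1 (chr9:94639469-94639768) are higher there and hold no match, and PKLR has the gap too, at few counts. PDK2, likewise higher there, holds a match and is not printed.
LDHA: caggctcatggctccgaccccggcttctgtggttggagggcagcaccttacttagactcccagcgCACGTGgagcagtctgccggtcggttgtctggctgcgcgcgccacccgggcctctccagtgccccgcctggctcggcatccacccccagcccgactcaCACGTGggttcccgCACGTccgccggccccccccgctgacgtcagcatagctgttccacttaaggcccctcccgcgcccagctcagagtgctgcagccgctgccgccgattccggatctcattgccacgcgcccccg
PDK1: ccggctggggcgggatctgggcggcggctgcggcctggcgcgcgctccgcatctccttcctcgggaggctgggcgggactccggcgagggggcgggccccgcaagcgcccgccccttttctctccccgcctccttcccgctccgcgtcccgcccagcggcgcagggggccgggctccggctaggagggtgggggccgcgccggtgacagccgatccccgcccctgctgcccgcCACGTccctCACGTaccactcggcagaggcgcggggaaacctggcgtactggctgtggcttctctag
ALDOC: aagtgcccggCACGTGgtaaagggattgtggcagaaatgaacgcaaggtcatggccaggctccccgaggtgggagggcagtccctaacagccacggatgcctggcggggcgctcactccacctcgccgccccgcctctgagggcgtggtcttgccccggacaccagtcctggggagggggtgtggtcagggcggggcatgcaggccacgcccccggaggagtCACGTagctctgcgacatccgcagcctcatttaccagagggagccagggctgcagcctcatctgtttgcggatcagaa
PKLR: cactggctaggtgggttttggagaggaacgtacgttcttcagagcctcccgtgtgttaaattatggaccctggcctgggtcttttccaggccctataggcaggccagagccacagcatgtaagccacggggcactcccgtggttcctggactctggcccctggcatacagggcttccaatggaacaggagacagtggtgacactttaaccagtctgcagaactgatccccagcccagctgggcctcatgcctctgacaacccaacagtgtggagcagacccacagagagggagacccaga
FBP1: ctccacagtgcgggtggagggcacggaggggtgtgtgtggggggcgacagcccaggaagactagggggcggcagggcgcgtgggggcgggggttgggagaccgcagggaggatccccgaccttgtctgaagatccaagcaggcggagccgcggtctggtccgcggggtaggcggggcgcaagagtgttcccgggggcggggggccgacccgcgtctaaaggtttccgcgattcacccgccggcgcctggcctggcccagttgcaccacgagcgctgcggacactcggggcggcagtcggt

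For 22 members a RefSeq window started within 200 bases of the deposited start of the most abundant transcript (for PKLR, of the liver transcript). ACGTG, on either strand, was present in 12 of the 22 and in 21.4% of all 35116 windows (chromosome 8 left out). Of the 10 windows of members more than 1 (log2) higher in Hep3B library 1 than in library 2, 8 held it (GPI, PFKFB3, ALDOC, PGK1, ENO2, LDHA, PDK1 and SLC16A3), while PFKFB4 and PKLR did not. Of the 5 windows of members called higher in the labeled knockout, 2 held it (ALDOC and PDK2). ACAAAG, the core bound by SOX factors, was present in 1 of the 22 (G6PC3) and in 16.1% of all windows. TTCNNNNGAA, the spacing preferred by STAT6, was in 0 of the 22 and in 6.44% of all windows. These are matches of letters in short windows, and no test was made. The members with the Hep3B gap and those called higher were chosen from their values.

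Isozyme shares were computed per length within each enzymatic step. Of the phosphofructokinase subunits PFKL, PFKM and PFKP, PFKP made up 4.94% and 2.43% in Hep3B and 20.0% and 29.1% in the labeled knockout, while PFKL remained the main subunit at 66.2% or more in all 8 libraries. With control siRNA PFKP made up 0.397% and 0.417%, and with STAT6 siRNA 0.143% and 0.343%. PKLR supplied 0.0628% and 0.0489% of pyruvate kinase transcripts in Hep3B and 1.46% and 0.918% in the labeled knockout, so PKM still made up at least 98.5%. ALDOC went from 0.286% and 0.0865% of aldolase (ALDOA and ALDOC) to 3.21% and 2.22%. Among the pyruvate dehydrogenase kinases, PDK1 made up 95.0% in Hep3B library 1 but 36.4% in library 2. In the labeled knockout PDK1 made up 17.7% and 36.2%, and PDK2 77.7% and 61.4%. PDK2 was also the main kinase in Hep3B library 2 (57.3%), with control siRNA (91.4% and 61.9%) and with STAT6 siRNA (94.7% and 71.5%). ENO1 made up at least 96.1% of enolase in every library. HK2 was in effect the hexokinase among the members, since HK1 had 12 counts in Hep3B library 2 and 0 in the other 3 libraries of that table. HKDC1, a further hexokinase outside the 35 genes, stood at 556 and 302 CPM in Hep3B and 75.4 and 146 CPM in the labeled knockout (log2 fold change -1.95, SE 0.50, adjusted p = 0.0608). The pairs of PCK1 with PCK2 and of LDHB with LDHA could not be read, as PCK1 and LDHB were not listed.

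As a summary, the median deviation of the tumor isozymes was subtracted from that of the liver isozymes in each library (log2, relative to the mean of Hep3B). The difference was -1.12 and 1.12 in Hep3B and 2.46 and 1.53 in the labeled knockout, a gap between the group means of 1.99. The liver median includes SLC2A2 and PKLR, which would not have entered without the knockout libraries, and lacks PCK1, which was not listed. The gap is therefore a description and gives no support, and it was not computed without these genes. The knockout libraries were above both Hep3B libraries, but the Hep3B libraries were 2.24 apart, more than the gap between the groups. Leaving out Hep3B library 1 gave 0.94 and leaving out library 2 gave 2.90. In the siRNA experiment the difference was 0.18 and -0.18 with control siRNA and 0.41 and 0.13 with STAT6 siRNA, a gap of 0.27. No test was made, because an exact permutation of 2 libraries against 2 cannot give a two-sided p below 0.333.

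Transcript estimates separated the types of pyruvate kinase. Of the PKLR counts, the liver transcript NM_181871 held 55.0% in Hep3B library 1 (11 of 20 counts, 95% Wilson interval 34.2% to 74.2%) and 55.6% in library 2 (5 of 9 counts, 26.7% to 81.1%). It held 95.1% (370 of 389 counts, 92.5% to 96.9%) and 93.3% (265 of 284 counts, 89.8% to 95.7%) in the labeled knockout. With control siRNA it held 98.3% (59 of 60 counts) and 90.1% (64 of 71 counts). With STAT6 siRNA it held 78.4% and 99.2%, so a high share was not particular to the labeled knockout. The rest was the red cell transcript, with 19 counts in each knockout library. PKM was the M2 type, the embryonic and tumor form, at 96.8% to 98.4% of its counts in all 8 libraries, and the M1 type of muscle made up at most 0.391%. These intervals cover counting error only.

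Other genes of the pathway gave the background. Of 35 further glucose metabolism genes tested, 5 were higher in the labeled knockout at the threshold and 0 lower, with a median log2 fold change of 0.43, beside 4.5% of all genes called higher. LDHD and G6PC, counted among the 5, passed the filter through the knockout libraries alone. PGAM2, the muscle phosphoglycerate mutase, went from 3.29 and 4.64 to 37.9 and 32.9 CPM (log2 fold change 3.16, SE 0.42, adjusted p = 0.0152). SLC2A12, a further glucose transporter, went from 4.71 and 4.38 to 33.3 and 14.2 CPM (log2 fold change 2.39, adjusted p = 0.0433), and SLC25A11, the mitochondrial oxoglutarate carrier, from 25.9 and 19.8 to 75.9 and 78.1 CPM (log2 fold change 1.75, adjusted p = 0.0364). LDHD, a D-lactate dehydrogenase, had 0 counts in both Hep3B libraries and stood at 4.13 and 1.76 CPM in the labeled knockout, at least 17.9-fold higher against 3 counts per library (adjusted p = 0.0261). G6PC, the catalytic subunit of glucose-6-phosphatase that works with SLC37A4, had 3 and 1 counts in Hep3B and 420 and 20 in the labeled knockout (adjusted p = 0.0485). Its ratio over the pooled counts was 90.2 (95% exact interval 34.99 to 333, counting error only), and the knockout libraries stood far apart. H6PD was the 1 gene called of 16 in glycogen metabolism and the pentose phosphate pathway, with 38.6 and 21.8 CPM in Hep3B and 167 and 155 CPM in the labeled knockout (log2 fold change 2.41, adjusted p = 0.0241). Of the 34 regulators, 0 were called, with 6 at an unadjusted p below 0.05. HIF1A, the oxygen-regulated factor, and HNF4A, a hepatocyte factor, were among those not called.

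STAT6 siRNA was compared with control siRNA in the same way. Of 28 members tested, 0 were called, as were 0 of 13554 genes (0% called), and 0 members had an unadjusted p below 0.05, where 0.103% of all genes did. The DESeq2 Wald test also called 0 members and 0 genes. The libraries grouped by number rather than by siRNA: for 21 of the 28 members both libraries numbered 1 lay above both numbered 2. The library numbers also differed across all genes, and the share of all genes in this order was not computed. The count is therefore not read as a trait of the members. The edgeR fit left out the library number and did not call STAT6 itself. Its 0 calls therefore cannot show that the members are unchanged. With the library number as a block, 11% of all genes had an unadjusted p below 0.05 (edgeR quasi-likelihood test). The members below it were G6PC3, PDK2, SLC37A4, PKLR and PFKL, each higher with STAT6 siRNA (log2 fold changes 0.46 to 0.67). No member was called in that fit. GAPDH stood at 5275 and 2745 CPM with control siRNA and at 7776 and 3062 CPM with STAT6 siRNA, and LDHA at 280 and 303 against 225 and 347 CPM. The median log2 fold change was 0.24 over the members and -0.03 over all genes, and 14 of 28 members were higher within both numbers, where 29.3% of all genes were.

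PKLR was the 1 tested member whose groups did not overlap, which 8% of all genes did, with 3.39 and 3.15 CPM for control siRNA and 5.44 and 4.99 CPM for STAT6 siRNA (log2 fold change 0.67, SE 0.73, adjusted p = 1). With the library number as a block, the log2 fold change of PKLR was 0.67 with an SE of 0.28. FBP1 stood at 3.17 and 1.64 against 3.97 and 2.23 CPM, and SLC37A4 at 58.5 and 21.8 against 83.7 and 30.7 CPM. Both were higher within each number, and the groups overlapped. PDK2 was at 24.5 and 10.5 against 36.5 and 16.3 CPM, whereas ALDOC was at 1.92 and 0.844 against 1.102 and 0.743 CPM. PFKP stood at 0.678 and 0.444 against 0.367 and 0.454 CPM and was not tested, and SLC2A3 and PDK4 were likewise below the filter. PGK1 was at 849 and 546 against 781 and 502 CPM, close within each number.

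The difference between the 2 effects was tested in a fit of all 8 libraries, in which 0.0769% of all genes passed. None of the 30 members tested passed. PFKP had the lowest p (knockout effect minus siRNA effect 4.20 log2, SE 1.01, adjusted p = 0.157), followed by PKLR (3.45, SE 0.88, adjusted p = 0.183), ALDOC (3.67, SE 1.08, adjusted p = 0.298), FBP1 (2.91, SE 0.96, adjusted p = 0.415) and PGK1 (-2.15, SE 0.79, adjusted p = 0.518). The effects on PKLR, FBP1 and PFKP are therefore not shown to differ between the experiments, although these genes passed the threshold in the knockout comparison. In the labeled knockout STAT6 itself fell, from 32.0 and 13.2 to 2.76 and 2.20 CPM (log2 fold change -3.18, adjusted p = 0.0275). The experiments were deposited as separate tables, and the levels were set side by side after scaling all genes, so differences between Hep3B and control siRNA were not tested.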

How the data were processed

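The authors deposited expected counts, estimated read counts per RefSeq transcript without normalization, in a table for each experiment. Per the labels, RNA was extracted with TRIzol, libraries were made with a stranded mRNA kit, and STAR, Partek and hg38 were used, with versions and roles not given in the sources used here. In the files the smallest sum of a transcript over its 4 libraries was 10. The design had assumed counts. Expected counts were summed per gene and rounded, and the same test was run. No column was left without a library (0).

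Genes were filtered with filterByExpr, scaled by TMM and fitted per table with edgeR 4.0.16 in R 4.3.3 (glmQLFit, glmQLFTest, Benjamini-Hochberg adjustment over all genes tested, threshold 0.05), without the library number. The same code was tested on simulated counts. Log2 differences between libraries used a prior count of 2. Levels per kb used GENCODE release 29 transcript lengths, positions and start windows RefSeq tables. Precision is limited by 2 libraries per group, and folds against 0 counts used 3 counts per library.

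The genes, isozyme classes and lists were chosen with earlier results of these data known. Members with an adjusted p below 0.05, those not overlapping with an absolute log2 fold change of 1 or more, and isozyme pairs are given in full, and other pathway genes are named where called or where a paragraph turns on them, the latter chosen after their values were seen. The alternatives covered scaling by the upper quartile or by median-of-ratios factors, the Wald test of DESeq2 1.42.0, other filters and fit options, the library number as a block, offsets for GC content and length (mgcv 1.9.3), all 8 libraries in 1 fit, and leaving out each library.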

Additional observations from a re-analysis of the deposited data

How the results depend on the processing

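The count of 7 members higher in the labeled SOX4 knockout was 4 with at least 10 counts in every library, 4 in a fit of all 8 libraries, 4 with offsets for GC content and length, and 0 with these offsets and the library number as a block. All of these were higher. Calls in either direction ranged from 0 to 16 when a library was left out, the 16 being 8 higher and 8 lower without Hep3B library 2. The count was 7 with either other scaling, no filter or a minimum log2 fold change of 1, and 6 with a robust fit, all higher, and with DESeq2 it was 10, of which 7 were higher and 3 lower. Over all genes the 849 calls became 2160 with DESeq2, 518 with at least 10 counts in every library and 438 with all 8 libraries, and 48 with block and offsets. The adjusted p over these settings ranged from 8.2e-10 to 0.11 for PKLR, from 4.8e-05 to 0.214 for FBP1 and from 5.7e-08 to 0.156 for PFKP. The siRNA count was 0 in each of its settings. The count for the difference between the effects ranged from 0 to 2, with 2 without control siRNA library 2.

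The gap between liver and tumor isozymes was 3.62 in the labeled knockout and 0.65 with STAT6 siRNA when only pairs of the same step were used. It ranged from 0.94 to 2.90 and from 0.10 to 0.48 when a library was left out. The cause of these shifts was not tested. The 3.62 compares medians of PKLR, SLC2A2 and PFKL with those of PKM, SLC2A1 and PFKP. It gives no support, since PKLR and SLC2A2 would not have passed the filter without the knockout libraries. The log2 ratio of PFKL to PFKP went the other way, from 4.23 and 5.14 in Hep3B to 2.02 and 1.32 in the labeled knockout.

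The labels do not say what the library numbers stand for. Deviations of same-numbered libraries correlated with r = -0.08 in the knockout experiment and 0.87 in the siRNA experiment, across genes. With the replicate block, 7 members and 982 genes were called in the knockout comparison, 0 members and 62 genes in the siRNA comparison, and 0 members in the test of the difference. LDHA reversed to 0.42 (log2) with the replicate block and 0.46 with block and offsets, PFKM to -0.066 with offsets and -0.036 with both, and PGK1 in the siRNA comparison to 0.12 with offsets and 0.073 with both.

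Leaving out a library reversed 10 members in the knockout comparison, none of them called. Their log2 fold changes ranged from -2.51 to 0.044 for SLC2A1, -0.71 to 0.66 for GPI, -0.17 to 0.40 for PFKM, -1.88 to 1.21 for PFKFB3, -2.24 to 1.498 for PFKFB4, -0.54 to 0.26 for TPI1, -1.67 to 1.31 for ENO2, -0.50 to 0.41 for PKM, -0.91 to 1.74 for LDHA and -2.80 to 1.32 for PDK1. The median over members ranged from -0.52 to 0.80. In the siRNA comparison the median ranged from -0.28 to 0.73, and ALDOC ranged from -1.07 to 0.18, PGK1 from -0.48 to 0.30, FBP1 from -0.11 to 0.97, SLC37A4 from -0.39 to 1.47, SLC16A1 from -1.14 to 0.68, PFKL from -0.079 to 0.96, PDK2 from -0.10 to 1.41 and G6PC3 from -0.38 to 1.62.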
